A study of Mus musculus with 24 samples.

Results

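The genes described here encode the nuclear part of the mitochondrial respiratory chain and of ATP synthase in mouse bone marrow-derived macrophages, together with complex I assembly factors that share their name stem. They were taken by name, as symbols that start with Nduf, Uqcr, Atp5 or Cox4 to Cox8, plus Cyc1 and Cycs. Of 105 symbols that fit, 9 were left out as pseudogenes by name and 8 because no library reached 1 CPM, the gene's count scaled by the library's total count to a common size. The remaining 88 members, of 55357 genes in the count table, are 45 of complex I (7 core subunits, 30 accessory subunits and 8 assembly factors), 9 of complex III, 16 of complex IV, 17 of complex V and Cycs. Just inside the threshold lay Cox6a2, with 1.32 CPM in its highest library, and just outside it lay Ndufs6b with 0.783 and Cox4i2 with 0.597. Ndufb1-ps was left out for its name although it reached 72.7 CPM.

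The macrophages were grown from femur and tibia marrow of wild-type C57BL/6J mice aged 8 to 12 weeks, with L929 supernatant as the source of M-CSF. They received 100 nM dexamethasone, a synthetic glucocorticoid, together with 100 ng LPS, the bacterial ligand of Toll-like receptor 4, LPS alone, dexamethasone alone, or neither. Cells were taken at 4 h and at 24 h, which gave 8 groups of 3 libraries. The labels state no volume for the LPS and no vehicle for the untreated cells, and leave unsaid if a group's 3 libraries are 3 mice, 3 cultures or repeats of either. The p-values therefore describe spread among the sequenced libraries, which may be technical.

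The respiratory chain passes electrons from NADH through complex I, or from succinate through complex II, to ubiquinone, complex III, cytochrome c and complex IV, and complex V uses the resulting proton gradient to make ATP. Most subunits are encoded in the nucleus and imported, a small set is encoded in mitochondrial DNA, and assembly factors join them. In macrophages, LPS is known for a shift towards glycolysis with altered mitochondrial electron transport, and the series title names metabolic rewiring in the action of glucocorticoids.

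Library totals ran from 18326206 to 27908164 counts, and 14985 genes entered the fit, among them all 88 members. From here on, levels are CPM after further scaling by edgeR's TMM factor, which ran from 0.679 to 1.18 over the libraries. Fold changes are log2, given with their standard error, and each adjusted p comes from the edgeR quasi-likelihood F test, adjusted by Benjamini-Hochberg across the 14985 genes. Changes with an adjusted p below 0.05 count as called. The summed level of 3 glucocorticoid targets, Fkbp5, Tsc22d3 and Per1, averaged 915 to 2592 CPM in the groups with dexamethasone and 47.3 to 116 CPM in those without. That of Tnf, Il1b and Cxcl10 averaged 243 to 18353 CPM with LPS and 2.44 to 39.7 CPM without. With both agents at 24 h Il1b carried the sum, at 249, 200 and 219 CPM against 2.13, 2.19 and 2.1 CPM untreated. Tnf overlapped untreated cells there (15.7, 14.5 and 17.7 CPM against 18.4, 15.5 and 18.8 CPM). Cxcl10 lay below them (2.99, 4.45 and 5.4 CPM against 6.93, 10.1 and 6.4 CPM). Macrophage markers summed to group means of 17853 to 49688 CPM, against at most 152 CPM for each list of markers of neutrophils, dendritic cells, lymphocytes, stroma and endothelium, mast cells or erythroid cells, so the cells carried the markers their label names. The lists moved with treatment. At 4 h neutrophil markers summed to 141 CPM with LPS against 49.5 CPM untreated, and those of stroma and endothelium to 128 CPM against 18.6 CPM, of which Kdr held 120 CPM and 15.5 CPM. At 24 h dendritic cell markers summed to 15.9 CPM with LPS against 152 CPM untreated, and macrophage markers to 41882 CPM with both agents, 49688 CPM with LPS, 32085 CPM with dexamethasone and 23012 CPM untreated. Single genes carried these 24 h sums. Of the dendritic cell markers Itgax held 11 CPM with LPS and 149 CPM untreated, while Ccr7 rose with LPS (3.34 CPM against 0.478 CPM). Of the macrophage markers Lyz2 held 39727 CPM with LPS and 16237 CPM untreated, while Cd68 (345 CPM against 1185 CPM) and Mrc1 (22 CPM against 564 CPM) fell. The part of such shifts in the members' values was not tested.

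Scaling matters for the 4 h libraries with LPS. TMM sets most genes' fold changes near 0, and scaling by library total alone shifted the median of all genes by -0.77 for LPS against untreated at 4 h and by 0.21 for dexamethasone plus LPS against LPS at 4 h. The corresponding shifts at 24 h were -0.20 and 0.03. For results at 4 h with LPS, the value or the call by library total is therefore given beside that under TMM.

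Summed over the 88 members under TMM scaling, the level was highest in cells given dexamethasone plus LPS for 24 h and lowest in cells given dexamethasone alone for 24 h. At 4 h the sum was 7258, 6843 and 7326 CPM with dexamethasone plus LPS, 7941, 7732 and 7517 CPM with LPS, 5717, 5850 and 5971 CPM with dexamethasone, and 5581, 5740 and 5572 CPM in untreated cells. At 24 h it was 10897, 10603 and 10200 CPM with dexamethasone plus LPS, 7970, 8112 and 7804 CPM with LPS, 5575, 4974 and 5081 CPM with dexamethasone, and 5750, 5458 and 5684 CPM in untreated cells. All 3 libraries with both agents at 24 h lay above all 21 others. In these bulk samples fewer cells of a type and less RNA per cell cannot be told apart. As a plain share of all counts, the members held 1.04 to 1.09% with both agents at 24 h and 0.774 to 0.793% with LPS at 24 h. At 4 h, that share was 0.525 to 0.544% with LPS and 0.65 to 0.679% in untreated cells, which is the opposite order to the TMM-scaled sums. Dexamethasone alone at 24 h held 0.584 to 0.635%, so by plain share the lowest group was LPS at 4 h.

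**Figure D1:**
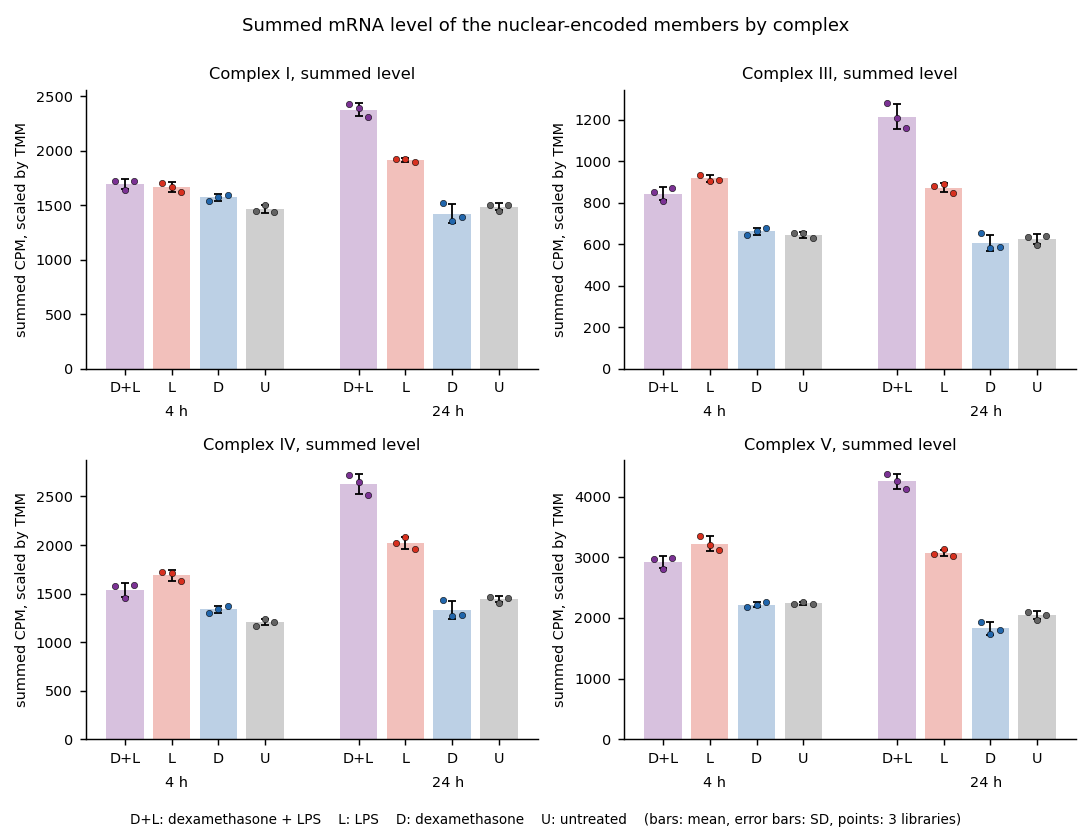
Summed CPM of the members of complexes I, III, IV and V (vertical axes, from 0) in the 8 groups, with bars at the mean of 3 libraries, error bars of 1 SD and a point for each library, D for dexamethasone, L for LPS and U for untreated. In each complex the 24 h group with both agents is the tallest, with complex V at 4252 CPM against 3073 CPM with LPS alone, and the 4 h bars with LPS depend on the TMM scaling.

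Members varied in this order. The group with both agents at 24 h had the highest mean level for 70 of 88 members and LPS at 4 h for 10, while dexamethasone alone at 24 h had the lowest for 47 and untreated cells at 4 h for 17. These ranks rest on TMM-scaled levels. They were not counted by library total or over all genes tested, so whether such counts are particular to the members was not tested. Per kilobase of exon, the complex IV genes Cox8a, Cox6a1 and Cox4i1 stood highest on average over the libraries, at 284, 232 and 205 CPM per kilobase. Atp5a1 and Atp5b, the alpha and beta subunits of the catalytic F1 head of ATP synthase, followed at 202 and 179 CPM per kilobase, Cox6b1 lying between them at 184. The lowest were the heart and muscle isoform Cox6a2 at 0.661 and the testis isoform Cox6b2 at 0.754 CPM per kilobase.

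The first comparison asks what LPS alone did at 4 h. Under TMM scaling 56 members rose and 6 fell, with a median of 0.33, where 34.2% of all genes tested rose, 38.8% fell, 72.9% were called in either direction and their median was -0.07. Under scaling by library total alone the direction turned, with 1 member higher, 74 lower and a median of -0.44. The members' median stood 0.40 above that of all genes. Rescaling shifts all genes by nearly the same amount, so this gap is nearly the same on both scales by construction. The groups did not overlap for 63 members, 71.6% of them, against 72.3% of all genes tested.

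The complexes differed in how many members rose at 4 h. In complex I 20 rose and 5 fell of 45 under TMM (median 0.18, or -0.59 by library total), and in complex III 8 rose of 9 (0.48 or -0.29). In complex IV 12 rose of 16 (0.57 or -0.20) and in complex V 15 rose and 1 fell of 17 (0.45 or -0.32). Within complex I, 16 of 30 accessory subunits and 3 of 7 core subunits rose under TMM, against 1 of 8 assembly factors. By library total alone none of these rose, and 26, 7 and 7 of them fell.

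Cycs, the mobile carrier cytochrome c, showed the largest rise of any member of at least 5 CPM, and it rose on either scale. It had 221, 244 and 230 CPM with LPS and 74.5, 73.7 and 74.5 CPM in untreated cells at 4 h. All LPS libraries lay far above all untreated ones, a log2 fold change of 1.64 ± 0.07 (SE, n = 3 per group, adjusted p = 8.4e-23), or 0.87 by library total alone. Ndufs4, an accessory subunit of the NADH-oxidising arm of complex I, had 46.2, 49.3 and 52.4 CPM with LPS against 27.1, 24 and 26.9 CPM untreated. Uqcrfs1, the Rieske iron-sulfur protein of complex III, had 131, 124 and 128 CPM against 71.5, 76.9 and 72.4 CPM. The groups did not overlap for either gene, with log2 fold changes of 0.92 ± 0.08 for Ndufs4 (adjusted p = 4.1e-13) and 0.80 ± 0.06 for Uqcrfs1 (1.5e-15), but by library total alone these were 0.15 and 0.03 and neither was called. The same held for Cox5a, a structural subunit around the catalytic core of complex IV, at 0.82 ± 0.07 under TMM and 0.05 by library total.

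Among members of at least 5 CPM, a pair of complex I assembly factors gave the largest falls. Ndufaf7, an arginine methyltransferase that acts in complex I assembly, had 3.4, 2.11 and 2.38 CPM with LPS and 19, 12.9 and 16.1 CPM in untreated cells at 4 h. Its groups were far apart and its log2 fold change was -2.60 ± 0.15 (SE, n = 3 per group, adjusted p = 1.2e-17), or -3.37 by library total. Ndufaf4, which acts early in complex I assembly, had 9.83, 9.13 and 9.94 CPM with LPS against 15.8, 15.4 and 16.2 CPM untreated, a change of -0.71 ± 0.11 (adjusted p = 2e-07), or -1.48 by library total. Smaller falls were called for the accessory subunits Ndufv3, -0.30 ± 0.09 (adjusted p = 0.003) or -1.06 by library total, and Ndufa6, -0.18 ± 0.07 (0.012) or -0.95 by library total. Ndufa6 was not called when DESeq2's size factors replaced TMM (-0.12, adjusted p = 0.091).

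**Figure D2:**
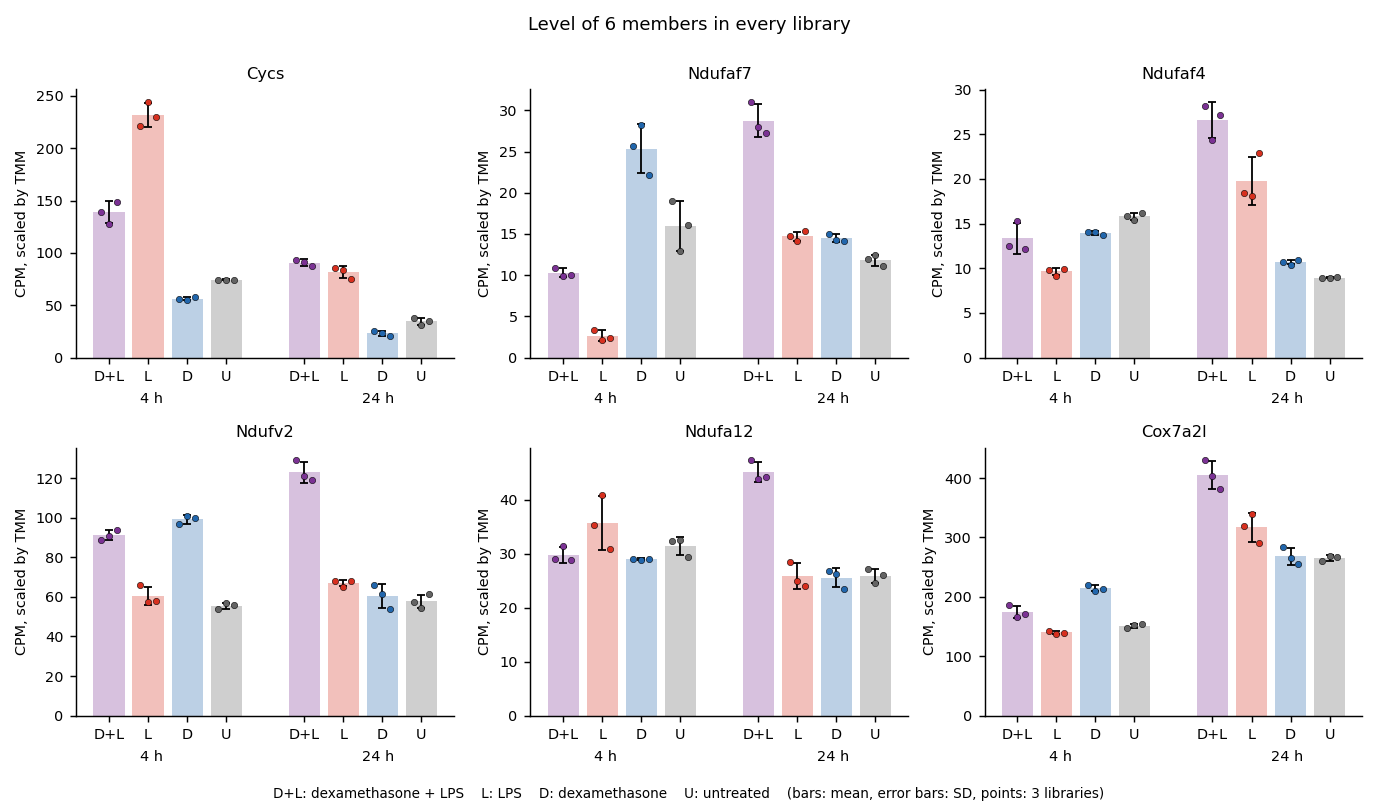
CPM of Cycs, Ndufaf7, Ndufaf4, Ndufv2, Ndufa12 and Cox7a2l (vertical axes) in every library, by treatment at 4 h and 24 h. Cycs with LPS at 4 h (221 to 244 CPM) and Ndufaf7 with LPS at 4 h (2.11 to 3.4 CPM) stand away from all other groups, and Ndufa12 is highest with both agents at 24 h (43.9 to 47.3 CPM).

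Promoter windows are shown for the 2 members that rose most and the 2 that fell most at 4 h under TMM, among called members of at least 5 CPM, from 250 bases before to 50 after the start in the RefSeq annotation of GRCm38.p6. Capitals mark matches to a cAMP response element (CRE, TGACGTCA), to the motif of YY1 (AAGATGGCG), a zinc finger factor, or to that of nuclear respiratory factor 1 (NRF1, GCGCAT followed by GCGC), a known activator of respiratory chain genes. The windows lie at chr6:50566520-50566819 on the minus strand for Cycs, chr13:114388045-114388344 on the minus strand for Ndufs4, chr4:24897833-24898132 on the plus strand for Ndufaf4 and chr17:78936885-78937184 on the plus strand for Ndufaf7.
Cycs: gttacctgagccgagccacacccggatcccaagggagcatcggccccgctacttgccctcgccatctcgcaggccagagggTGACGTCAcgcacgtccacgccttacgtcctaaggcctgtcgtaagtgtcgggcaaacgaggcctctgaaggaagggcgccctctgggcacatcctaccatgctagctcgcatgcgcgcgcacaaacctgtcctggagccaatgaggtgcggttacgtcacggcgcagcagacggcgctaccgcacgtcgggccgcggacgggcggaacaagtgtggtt
Ndufs4: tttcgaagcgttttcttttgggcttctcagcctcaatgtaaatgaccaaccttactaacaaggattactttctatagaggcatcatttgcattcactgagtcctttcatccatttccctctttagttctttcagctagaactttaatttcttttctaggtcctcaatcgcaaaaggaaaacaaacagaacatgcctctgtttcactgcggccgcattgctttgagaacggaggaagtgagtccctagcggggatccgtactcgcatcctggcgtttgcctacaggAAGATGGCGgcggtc
Ndufaf4: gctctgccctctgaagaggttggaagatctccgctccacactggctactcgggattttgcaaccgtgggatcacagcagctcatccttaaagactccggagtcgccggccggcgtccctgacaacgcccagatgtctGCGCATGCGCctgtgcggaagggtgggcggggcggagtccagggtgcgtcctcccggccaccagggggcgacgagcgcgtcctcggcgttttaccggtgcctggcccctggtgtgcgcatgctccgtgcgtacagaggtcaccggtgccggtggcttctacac
Ndufaf7: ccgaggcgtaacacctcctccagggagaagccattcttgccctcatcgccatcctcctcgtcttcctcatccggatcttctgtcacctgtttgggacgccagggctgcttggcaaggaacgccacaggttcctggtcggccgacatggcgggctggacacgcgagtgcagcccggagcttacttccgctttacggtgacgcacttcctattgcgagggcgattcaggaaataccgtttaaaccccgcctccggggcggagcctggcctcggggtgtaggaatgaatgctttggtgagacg
Of these motifs Cycs holds the CRE, Ndufs4 the YY1 letters and Ndufaf4 the NRF1 letters, and Ndufaf7 holds none.

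RefSeq windows were found for 70 members, 75 windows of the 32851 in that table, and both strands were searched. The CRE occurred in 5 member windows (6.67%), of Cycs, Uqcrfs1, Ndufa10, Ndufa11 and Ndufb2, against 1.79% of all windows. The NRF1 letters occurred in 7 (9.33%), of Atp5g2, Atp5k, Cox6a1, Ndufa11, Ndufaf4, Ndufaf5 and Uqcrc1, against 0.971% of all. An ETS-family motif (CCGGAAG), the kind bound by GABP, occurred in 16 (21.3%) against 8.86%, and the YY1 motif in 8 (10.7%) against 1.4%. The motif of estrogen-related receptors (TCAAGGTCA) was in the window of Atp5g3 only, 1.33% against 0.423%. Neither the glucocorticoid response element (AGAACA and TGTTCT with 3 bases between them, 0.00913% of all windows) nor the NF-kB motif (GGG and TTTCC with 2 bases between them, 1.63%) had a match in a member window.

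At 24 h LPS against untreated gave rises through all complexes. In all, 72 members rose and 2 fell, with a median of 0.48, where 29.7% of all genes rose, 30.6% fell, 60.4% were called in either direction and their median was -0.02. Scaled by library total, 55 rose and 5 fell, with a median of 0.28. LPS and untreated libraries did not overlap for 76 members (86.4%, against 68.1% of all genes). By complex, 36 of 45 rose in complex I (median 0.38), 8 of 9 in complex III (0.58), 12 of 16 in complex IV (0.54) and 15 of 17 in complex V (0.48). By library total these counts were 23 (0.18, with 3 lower), 6 (0.38), 10 (0.35) and 15 (0.28). Of the core subunits of complex I, 6 of 7 were higher under TMM and 2 of 7 by library total. Of the 56 members higher at 4 h under TMM, 52 were higher at 24 h as well, and 17 that were not called at 4 h were higher at 24 h. Over all members 81.8% were higher at 24 h, and the 4 h direction turns by library total alone.

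Cycs again led, with 85.4, 83.9 and 75.4 CPM with LPS and 37.9, 31.1 and 34.6 CPM in untreated cells at 24 h. The groups were well apart, at 1.24 ± 0.07 (SE, n = 3 per group, adjusted p = 7.3e-18), although the level of Cycs in both was lower than in its 4 h counterpart. Cox5a had 110, 120 and 120 CPM with LPS against 51.4, 55.1 and 54.9 CPM untreated, a rise of 1.11 ± 0.07 (adjusted p = 7.7e-17). Ndufc1, a small membrane subunit of complex I, had 34.7, 32.1 and 34.7 CPM against 16.8, 16.5 and 16.5 CPM, a rise of 1.03 ± 0.10 (adjusted p = 1.5e-11). None of these groups overlapped. Uqcrq, a small subunit of complex III, rose by 1.00 ± 0.08 (adjusted p = 2.1e-13), and the beta subunit Atp5b by 0.94 ± 0.05 (5.8e-20), with 902, 915 and 899 CPM against 485, 448 and 478 CPM.

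The assembly factor Ndufaf4 rose at 24 h, to 18.4, 18.1 and 22.9 CPM with LPS against 8.92, 8.92 and 9 CPM in untreated cells. That is 1.15 ± 0.10 (SE, n = 3 per group, adjusted p = 3.2e-12), the opposite direction to 4 h. Ndufaf7, at 14.7, 14.2 and 15.3 CPM with LPS against 11.9, 12.4 and 11.1 CPM untreated, was higher by 0.32 ± 0.12 under TMM (adjusted p = 0.019) but not called by library total (0.12, adjusted p = 0.38). The X-linked accessory subunit Ndufb11 went the other way, with 48.5, 51.8 and 43.8 CPM against 58, 59.6 and 61.6 CPM, at -0.31 (SE 0.07, adjusted p = 7.7e-05), or -0.52 by library total. Of members under 5 CPM, the testis isoform Cox6b2 fell, with 0.367, 0.417 and 0.546 CPM with LPS against 1.31, 1.13 and 1.12 CPM, and the muscle isoform Cox6a2 rose, with 0.872, 1.35 and 1.09 CPM against 0.317, 0.313 and 0.493 CPM. These 2 rest on few counts, at -1.41 ± 0.43 (adjusted p = 0.005) and 1.55 ± 0.48 (0.0052).

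Whether the LPS effect differed between 24 h and 4 h was tested as an interaction. It was more positive at 24 h for 36 members and more negative for 11 (median difference 0.17). Of all genes 30.8% and 30.5% were called (61.3% in either direction) and their median was 0.01. By library total alone the LPS effect was more positive at 24 h for 80 members, with a median of 0.74. The assembly factors Ndufaf7 (2.92 ± 0.20, adjusted p = 1.5e-15) and Ndufaf4 (1.86 ± 0.15, 1.5e-13) and the accessory subunit Ndufv3 (0.84 ± 0.12, 1.8e-07) led, and were called on both scales. On the negative side Uqcrfs1 stood at -0.56 ± 0.08 (adjusted p = 7.8e-08), Ndufaf8 at -0.51 ± 0.17 (0.011) and Cycs at -0.40 ± 0.09 (0.00039), but by library total these became 0.01, 0.06 and 0.17 and were not called. Under TMM, complex I held 21 of the 36 members with a more positive effect at 24 h and 3 of the 11 with a more negative one, and by library total 43 of the 80.

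The second comparison asks what dexamethasone alone did. At 4 h 16 members rose and 8 fell, with a median of 0.03. The rises were 18.2% of members against 17.6% of all genes tested, the falls 9.09% against 23.7%, and calls in either direction 27.3% against 41.4%, around an all-gene median of -0.04. Dexamethasone and untreated libraries did not overlap for 35 members (39.8%, against 49.3% of all genes). Complex I held 9 of the rises, 3 of them among its 7 core subunits, and 2 of the falls.

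Ndufv2, an iron-sulfur subunit of the NADH-oxidising module, changed most at 4 h. It had 96.8, 101 and 99.7 CPM with dexamethasone and 53.9, 57 and 55.8 CPM in untreated cells. The groups were far apart, at 0.84 ± 0.06 (SE, n = 3 per group, adjusted p = 7.7e-14). Cox7a2l, counted here in complex IV, had 220, 210 and 214 CPM against 147, 153 and 154 CPM, a rise of 0.50 ± 0.06 (adjusted p = 1.2e-09). Ndufaf7 had 25.7, 28.2 and 22.2 CPM against 19, 12.9 and 16.1 CPM, a rise of 0.66 ± 0.11 (adjusted p = 6e-06). The accessory subunit Ndufa3 rose by 0.36 ± 0.08 (adjusted p = 0.00026). In these 4 genes every dexamethasone library lay above every untreated one.

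Cycs fell at 4 h to 56.2, 55.3 and 57.5 CPM with dexamethasone, against 74.5, 73.7 and 74.5 CPM in untreated cells. The groups did not overlap, at -0.40 ± 0.07 (SE, n = 3 per group, adjusted p = 6.7e-06). Ndufaf2, an assembly factor and paralogue of Ndufa12, had 4.76, 4.72 and 5.41 CPM against 7.15, 8.44 and 8.29 CPM, a change of -0.67 ± 0.14 (adjusted p = 0.00018). Uqcrq fell by 0.33 on the log2 scale (SE 0.08, adjusted p = 0.00085). Of the exonic bases of Ndufaf2 65.6% also lie in an antisense gene. The counting did not use strand, so reads within the shared bases cannot be told apart by strand. The fall of Cox7a2, a small complex IV subunit, at -0.20 (adjusted p = 0.027), was lost without any of 4 of the libraries compared, replicates 1 and 2 of untreated cells and replicates 1 and 2 of dexamethasone.

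After 24 h of dexamethasone alone more members were lower. Only 5 rose and 32 fell (median -0.12), where 21.9% of all genes rose, 26.5% fell and 48.4% were called in either direction around a median of 0.00. Scaled by library total, 9 rose and 26 fell. Without replicate 2 of dexamethasone at 24 h the count was 4 higher and 20 lower, and replicate 1 of that group, with a summed level of 5575 CPM, lay above the other two at 4974 and 5081 CPM. Of complex IV 6 of 16 members fell (median -0.17), of complex V 8 of 17 (-0.12), of complex I 14 of 45, with 3 that rose (-0.10), and of complex III 3 of 9, with 2 that rose (-0.08). Without overlap between the groups were 41 members, 46.6%, against 60% of all genes.

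Cycs had its lowest levels of any group here, with 25.2, 23.7 and 20.6 CPM with dexamethasone and 37.9, 31.1 and 34.6 CPM in untreated cells at 24 h. The groups did not overlap, at -0.57 ± 0.08 (SE, n = 3 per group, adjusted p = 4.7e-08). Atp5g2, which encodes the c subunit of the rotating membrane ring of ATP synthase, had 58.7, 53.7 and 57.5 CPM against 84.6, 75.2 and 72.6 CPM, and Atp5g1, which encodes the same mature protein, had 37.7, 31 and 33.7 CPM against 47.7, 42.8 and 47.2 CPM. Both were lower in every dexamethasone library, at -0.45 ± 0.06 (adjusted p = 2.2e-07) for Atp5g2 and -0.43 for Atp5g1 (2.8e-06). The assembly factor Ndufaf8 was at -0.53 ± 0.12 (adjusted p = 0.00045) and the accessory subunit Ndufa2 at -0.44 ± 0.07 (2.5e-06). The 5 rises were small, at most 0.30, and those of Ndufaf7, Ndufb9, Ndufs3 and Cyc1 were each lost when any of several libraries was left out.

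The effect of dexamethasone alone was lower at 24 h than at 4 h for 22 members and higher for 2 (median -0.16), against 16.8% and 13.8% of all genes (30.7% in either direction). Ndufv2 led with -0.77 ± 0.09 (adjusted p = 1.1e-08), and it had 65.8, 61.4 and 54.1 CPM with dexamethasone at 24 h against 57.3, 54.6 and 61.3 CPM in untreated cells, where the groups overlap. Ndufa3 was at -0.57 ± 0.11 (adjusted p = 0.00011) and Cox6a1, the ubiquitous isoform of a complex IV subunit, at -0.50 ± 0.09 (2e-05). The 2 on the positive side were Ndufaf4, 0.43 ± 0.15 (adjusted p = 0.021), and the cytochrome c1 gene Cyc1, 0.32 ± 0.09 (0.005).

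The third comparison asks what dexamethasone did to cells that also received LPS. At 4 h 11 members rose and 27 fell under TMM, with a median of -0.11, where 23.9% of all genes rose, 25.4% fell and 49.3% were called in either direction around 0.00. By library total alone the direction turned, to 35 higher and 2 lower with a median of 0.11. The members' median stood 0.10 below that of all genes, a gap that rescaling leaves nearly unchanged by construction. In a fit of the 6 libraries compared alone 9 rose and 12 fell. Under TMM 8 of 16 members fell in complex IV and 1 rose (median -0.18, or 0.04 by library total), 7 of 17 fell in complex V (-0.16 or 0.06) and 4 of 9 fell in complex III (-0.13 or 0.10). In complex I 10 of 45 rose and 7 fell (-0.02 or 0.20). The groups did not overlap for 38 members, 43.2%, against 49.8% of all genes.

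Of the 11 rises at 4 h 10 were in complex I, among them 4 of its 8 assembly factors, and those named next were called on both scales. Ndufaf7 had 10.9, 9.93 and 9.97 CPM with dexamethasone plus LPS and 3.4, 2.11 and 2.38 CPM with LPS. All libraries with both agents lay above all with LPS, at 1.95 ± 0.16 (SE, n = 3 per group, adjusted p = 1.4e-12). Ndufv2 had 88.9, 90.6 and 93.9 CPM against 65.9, 57.4 and 58.1 CPM, a rise of 0.59 ± 0.06 (adjusted p = 7.5e-10), and Ndufaf4 rose by 0.47 ± 0.11 (0.00056) with 12.5, 15.3 and 12.2 CPM against 9.83, 9.13 and 9.94 CPM. Neither gene's groups overlapped. The assembly factor Ndufaf1 rose by 0.34 ± 0.12 (adjusted p = 0.016) or 0.56 by library total, and its call under TMM was lost without replicate 1 of both agents (0.22, adjusted p = 0.16) or without replicate 3 of LPS (0.29, 0.065).

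Cycs fell at 4 h to 139, 128 and 149 CPM with dexamethasone plus LPS, against 221, 244 and 230 CPM with LPS. The groups were far apart, at -0.74 ± 0.06 (SE, n = 3 per group, adjusted p = 2.9e-12), or -0.52 by library total, and the level with both agents was still above the 73.7 to 74.5 CPM of untreated cells. Uqcrq had 66.4, 60.1 and 69.4 CPM against 81.6, 88.1 and 92.6 CPM, at -0.42 ± 0.08 (adjusted p = 2.7e-05) or -0.20 by library total. Ndufaf2, at -0.51 ± 0.15 (adjusted p = 0.0046), and the accessory subunit Ndufa11, at -0.33 ± 0.09 (0.0014), were not called by library total alone. The falls of Atp5b, -0.24 (adjusted p = 2.1e-05), and of Cox4i1, the ubiquitous isoform of a regulatory complex IV subunit, -0.24 (8.6e-05), were likewise -0.02 each by library total, and not called.

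At 24 h dexamethasone plus LPS against LPS gave rises in all complexes. In all, 58 members rose and 2 fell, with a median of 0.33, where 21% of all genes rose, 22.6% fell, 43.7% were called in either direction and their median was 0.00. Scaled by library total, 61 rose and 2 fell. Libraries with both agents and with LPS did not overlap for 71 members, 80.7%, against 55.2% of all genes. All 9 members of complex III rose (median 0.44), as did 15 of 17 in complex V (0.38), 10 of 16 in complex IV (0.38) and 24 of 45 in complex I (0.27). Within complex I the counts were 6 of 7 core subunits (median 0.46), 16 of 30 accessory subunits (0.24) and 2 of 8 assembly factors (0.02).

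**Figure D3:**
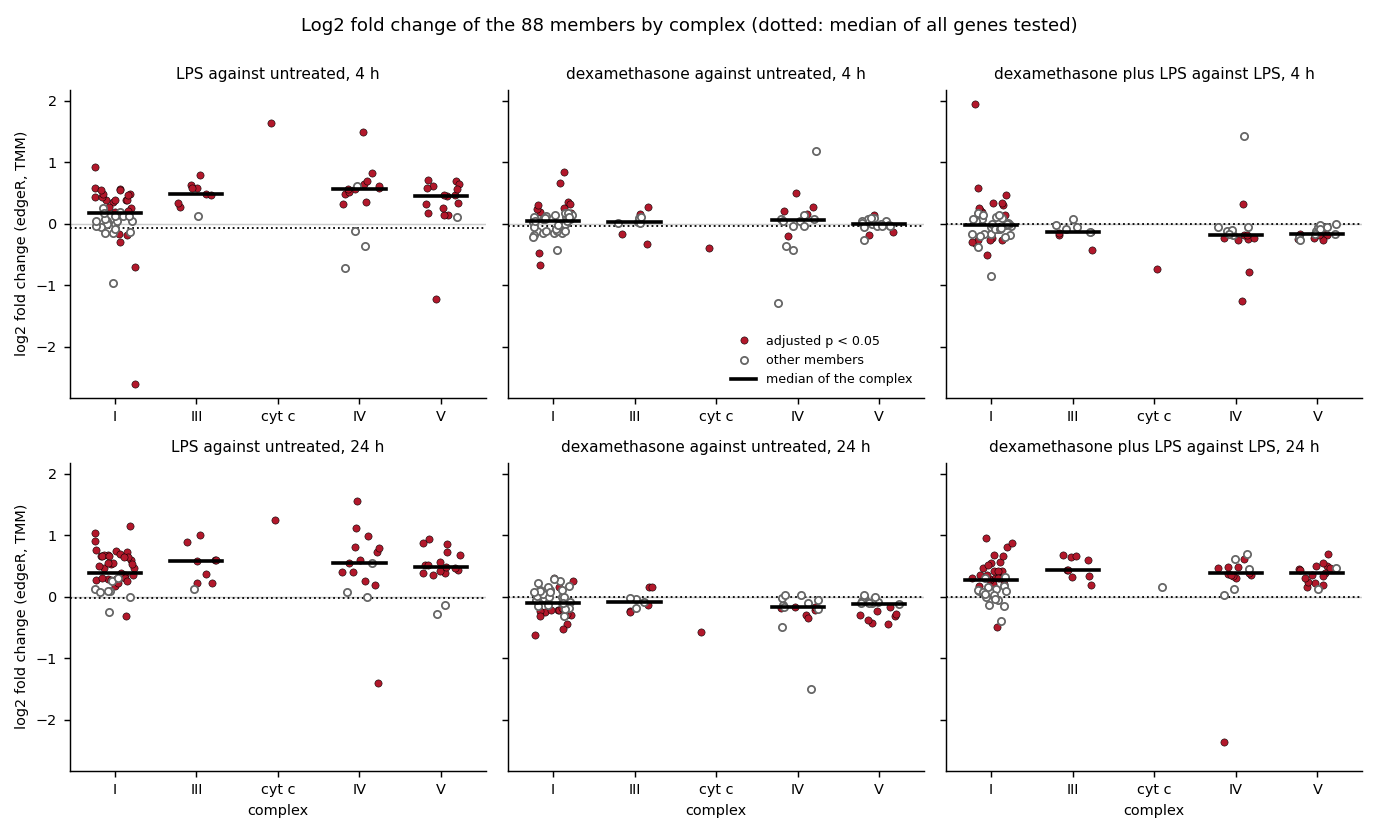
Log2 fold change of each of the 88 members (vertical axis) by complex in the 6 main comparisons, 4 h above and 24 h below, filled where adjusted p is below 0.05, with a bar at the median of the complex and a dotted line at the median of all genes tested. At 24 h the complex medians of both agents against LPS lie between 0.27 and 0.44 and those of dexamethasone alone between -0.17 and -0.08, while the 4 h panels with LPS change direction when scaled by library total alone.

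Ndufaf7 and Ndufv2 led at 24 h as they had at 4 h. Ndufaf7 had 31, 28 and 27.3 CPM with dexamethasone plus LPS and 14.7, 14.2 and 15.3 CPM with LPS, and Ndufv2 had 129, 121 and 119 CPM against 67.8, 65.1 and 68.2 CPM. Every library with both agents was well above those with LPS, at 0.96 ± 0.11 (SE, n = 3 per group, adjusted p = 5.1e-09) for Ndufaf7 and 0.87 ± 0.06 (2.2e-14) for Ndufv2. Ndufa12, an accessory subunit added late to the NADH-oxidising arm, had 47.3, 43.9 and 44.2 CPM against 28.5, 25 and 24.1 CPM, a rise of 0.80 ± 0.08 (adjusted p = 3.3e-10). In the other 3 groups at 24 h Ndufa12 lay between 23.5 and 28.5 CPM, and those groups overlap. Ndufs1, the largest iron-sulfur core subunit of complex I, had 121, 121 and 117 CPM against 73.8, 78.1 and 74.2 CPM, a rise of 0.67 ± 0.05 (adjusted p = 7.6e-13).

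In complex III the Rieske protein gene Uqcrfs1 had 149, 140 and 139 CPM with dexamethasone plus LPS and 90, 93.6 and 83.7 CPM with LPS, a rise of 0.68 ± 0.05 (SE, n = 3 per group, adjusted p = 4.8e-13). Cyc1, which carries the haem that passes electrons to cytochrome c, had 178, 164 and 152 CPM against 107, 108 and 99.2 CPM, a rise of 0.65 ± 0.06 (adjusted p = 1.8e-11). Uqcr11, a small subunit, had 80, 81.3 and 71 CPM against 50.5, 49.7 and 47.3 CPM, a rise of 0.66 ± 0.07 (adjusted p = 2.1e-09). None of the 3 genes' groups overlapped. The smallest rise in complex III was 0.19.

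In complex IV Ndufa4, formerly counted in complex I and now known as a subunit of cytochrome c oxidase, had 123, 118 and 110 CPM with dexamethasone plus LPS and 78.6, 75.6 and 77 CPM with LPS, a rise of 0.61 ± 0.06 (SE, n = 3 per group, adjusted p = 2.5e-11). Cox8a, the ubiquitous isoform of a small subunit, had 361, 357 and 318 CPM against 248, 263 and 224 CPM, a rise of 0.49 (adjusted p = 7e-08). Cox4i1, with 479, 470 and 455 CPM against 334, 337 and 342 CPM, rose by 0.47 ± 0.05 (adjusted p = 2.4e-10), and Cox7a2l, with 430, 404 and 382 CPM against 320, 340 and 291 CPM, by 0.35 ± 0.05 (1.1e-06). Every library with both agents lay above every LPS library in these 4 genes. Cox7a2 was not called, at 0.12 (adjusted p = 0.17).

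In complex V all 5 members of the F1 head rose, with a median of 0.47, and 10 of 12 of the stalk and membrane part, with a median of 0.35. The alpha subunit gene Atp5a1 had 951, 928 and 902 CPM with dexamethasone plus LPS and 562, 581 and 567 CPM with LPS. The groups lay far apart, at 0.70 ± 0.05 (SE, n = 3 per group, adjusted p = 2e-15). Atp5b had 1266, 1229 and 1224 CPM against 902, 915 and 899 CPM, a rise of 0.45 ± 0.04 (adjusted p = 8.1e-11). Atp5g3, the third gene for the c subunit, had 301, 280 and 281 CPM against 195, 203 and 189 CPM, a rise of 0.55 (adjusted p = 1.3e-10).

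Some members did not follow at 24 h. Cycs had 93.5, 91.5 and 87.2 CPM with dexamethasone plus LPS and 85.4, 83.9 and 75.4 CPM with LPS, groups that do not overlap but whose difference, 0.15 ± 0.07 (SE, n = 3 per group), missed the threshold under TMM (adjusted p = 0.06) and passed it by library total (0.19, adjusted p = 0.018). Ndufs4 had 38.9, 38.3 and 37.2 CPM against 38.8, 39.7 and 39.2 CPM, at -0.04, where the groups overlap. The 2 falls were Ndufaf2, with 5.34, 6.31 and 4.93 CPM against 8.35, 8.18 and 6.95 CPM (-0.50 ± 0.15, adjusted p = 0.0048), most of whose exonic bases are shared with its antisense gene, and Cox6a2, with 0.0524, 0.362 and 0.208 CPM against 0.872, 1.35 and 1.09 CPM (-2.37 ± 0.54, 0.00043), which rests on few counts. For both, every library with both agents lay below every LPS library.

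The dexamethasone effect under LPS was higher at 24 h than at 4 h for 55 members and lower for 1, with a median difference of 0.41, where 19% and 19.8% of all genes were called (38.8% in either direction) and their median was -0.02. By library total alone it was higher for 39 and lower for 4. Ndufa12 led with 1.06 ± 0.12 (adjusted p = 3e-09), followed by Cycs with 0.89 ± 0.09 (4.9e-10) and Cyc1 with 0.85 ± 0.09 (3.8e-10). All 3 were also called by library total, at 0.87, 0.70 and 0.66. Ndufaf7, at -0.99 ± 0.20 (adjusted p = 0.00015) or -1.18 by library total, was the 1 member on the other side under TMM, with a larger rise at 4 h. Of the 27 members lower at 4 h under TMM, 18 were higher at 24 h, but the 4 h direction turns under the other scaling.

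Whether the effect of dexamethasone depended on LPS was tested at each time. At 24 h it was higher with LPS than without for 61 members and lower for 0 of 88, with a median difference of 0.46, where 20.5% of all genes were higher, 17.7% lower, 38.2% either and the median was 0.01. At an unadjusted p below 0.05 edgeR gave 67 higher and 0 lower, and DESeq2's Wald test gave 61 and 0, as did edgeR by library total alone. In complex I 25 of 45 differed, in complex III 8 of 9, in complex IV 13 of 16 and in complex V 14 of 17. Uqcr11 led with 0.89 ± 0.11 (adjusted p = 9e-09), with Ndufa12 at 0.82 ± 0.12 (5.4e-07) and Uqcrfs1 at 0.81 ± 0.08 (6.4e-11). Of the 32 members lower with dexamethasone alone at 24 h, 21 were higher with dexamethasone plus LPS against LPS. Of all 88 members 58 (65.9%) were higher in that comparison.

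**Figure D4:**
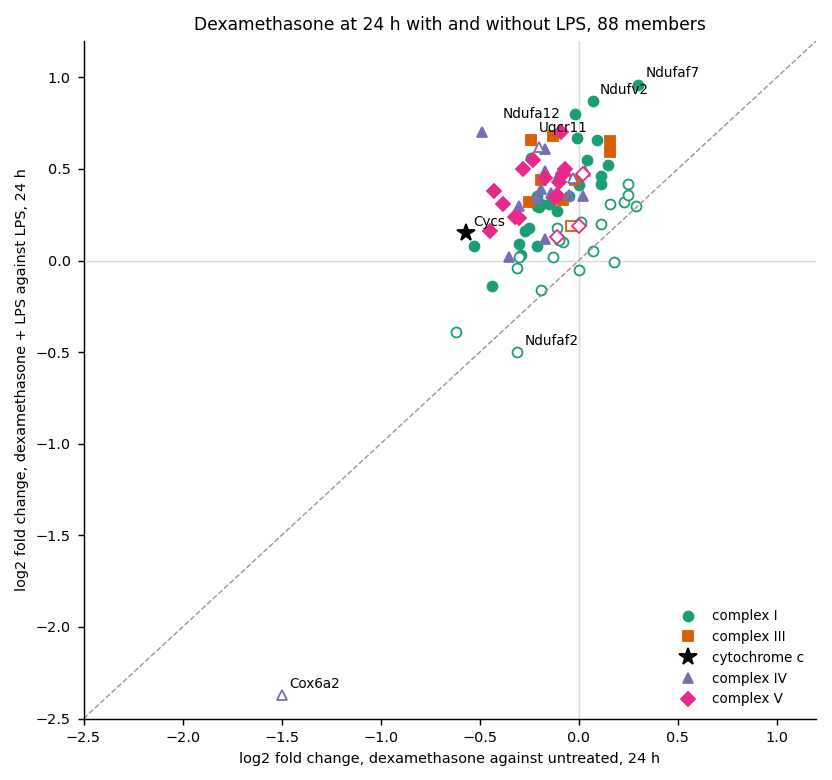
Log2 fold change at 24 h of dexamethasone plus LPS against LPS (vertical axis) and of dexamethasone against untreated (horizontal axis) for the 88 members, filled where the difference between the effects has an adjusted p below 0.05, with a dashed line of equal effects. The 61 filled points all lie above the line, among them Uqcr11, Ndufa12 and Uqcrfs1.

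At 4 h the dexamethasone effect differed by LPS for fewer members, 3 higher and 14 lower with LPS under TMM (median -0.13), where 20.8% of all genes were higher, 17.9% lower and 38.7% either. By library total alone the direction turned to 15 higher and 1 lower. Ndufaf7 (1.30 ± 0.20, adjusted p = 2e-06) and Ndufaf4 (0.65 ± 0.15, 0.00052) were higher with LPS on both scales. Ndufab1, the mitochondrial acyl carrier protein, was at 0.26 ± 0.10 (adjusted p = 0.033) or 0.50 by library total, and its call under TMM was lost when any of 6 libraries was left out. Cox4i1 was lower with LPS, at -0.40 ± 0.07 (adjusted p = 9.6e-06), or -0.17 by library total (0.031). Cox5a (-0.39 ± 0.10, adjusted p = 0.0015) and Ndufa1 (-0.42 ± 0.13, 0.0078) were not called by library total.

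**Figure D5:**
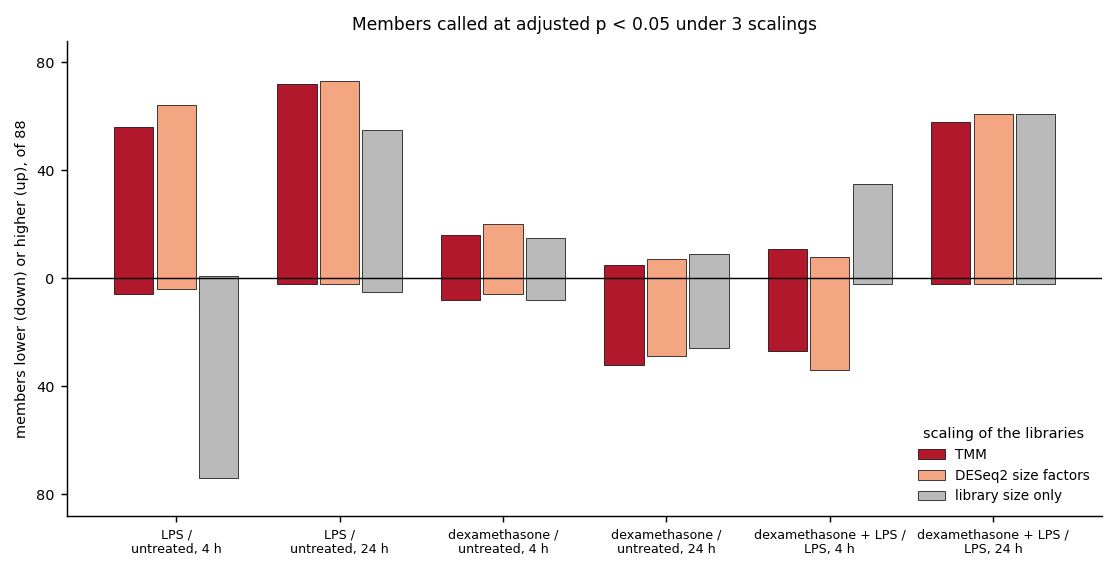
Number of the 88 members called higher (above 0) and lower (below 0) in the 6 main comparisons under TMM, DESeq2 size factors and library size only. LPS against untreated at 4 h turns from 56 higher and 6 lower under TMM to 1 and 74 by library size only, and both agents against LPS at 4 h from 11 and 27 to 35 and 2, while at 24 h both agents against LPS give 58 and 2 or 61 and 2.

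Libraries of untreated cells also differed between the times. At 24 h against 4 h 27 members rose and 19 fell, with a median of 0.04, against 30.6% and 30.4% of all genes (60.9% in either direction), or 21 and 23 by library total. Cycs fell most, to 37.9, 31.1 and 34.6 CPM at 24 h, against 74.5, 73.7 and 74.5 CPM at 4 h, at -1.11 ± 0.07 (SE, n = 3 per group, adjusted p = 3.9e-16). Cox7a2l, with 260, 269 and 267 CPM against 147, 153 and 154 CPM, rose by 0.81 ± 0.06 (adjusted p = 3.3e-15), and the accessory subunit Ndufa6 by 0.86 ± 0.06 (1e-14). The libraries of the times are separate in each case.

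A pair of members with near copies stood apart between the times in all treatments. Ndufb4c had group means of 1.24 to 2.95 CPM at 24 h and 0.0173 to 0.0823 CPM at 4 h, and Cox6c2 of 0.626 to 1.63 CPM at 24 h and 0.0349 to 0.157 CPM at 4 h. The mitochondrially encoded mt-Atp6 stood at 141 to 290 CPM in the 12 libraries of 24 h and at 5.62 to 9.32 CPM in the 12 of 4 h. Likewise far apart were mt-Co2 (158 to 287 CPM against 5.43 to 10.5 CPM) and mt-Co3 (217 to 403 CPM against 5.57 to 11.6 CPM). The same held for mt-Nd3, mt-Nd4l and mt-Atp8, while the other mitochondrially encoded genes differed far less. The labels name no batch, and a difference in handling between the library sets cannot be told apart from time. Exons of 31 members share bases with another gene, over 20% of them in Ndufaf2, Atp5o (47.9%), Ndufb6 (39%) and Ndufa13 (30%).

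Among related genes outside the name rule, the 8 genes of complex II and its assembly, which feed electrons from succinate, were tested at the same times. At 24 h with dexamethasone plus LPS against LPS 4 rose (median 0.34), and with LPS against untreated 6 rose and 1 fell (0.40). Of all genes tested 21% rose and 22.6% fell in the former comparison, and 29.7% and 30.6% in the latter. Sdha, the flavoprotein subunit of complex II, averaged 454 ± 6.58 CPM with both agents and 278 ± 6 CPM with LPS (SD, n = 3 each), a rise of 0.71 ± 0.05 (SE, adjusted p = 1.8e-15). Of 13 citrate cycle genes, which supply the NADH and succinate, 12 rose with both agents against LPS at 24 h (median 0.40).

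Of the 13 protein genes of mitochondrial DNA, which encode the remaining subunits of the same complexes, 1 rose and 6 fell with LPS against untreated at 24 h (median -0.22, or -0.42 by library total). Among all genes tested 29.7% rose and 30.6% fell there. With both agents against LPS at 24 h 10 of the 13 rose (0.40). Mitochondrial ribosomal protein genes, 77 tested, gave 15 higher and 12 lower in that comparison (0.03). Assembly factors outside the name rule, 33 tested, gave 8 higher and 5 lower (0.03). The shares of all genes tested were 21% higher and 22.6% lower.

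Ppargc1b, a coactivator of mitochondrial biogenesis, averaged 36.1 ± 1.42 CPM with both agents and 11.2 ± 0.624 CPM with LPS at 24 h, a rise of 1.69 ± 0.15 (SE, n = 3 per group, adjusted p = 3.2e-12). With LPS against untreated at 24 h it rose by 2.56 ± 0.19 (adjusted p = 2.3e-14), and with dexamethasone alone by 1.77 ± 0.20 (2e-09). Esrra, an orphan nuclear receptor that works with it, averaged 128 ± 5.28 CPM with both agents and 103 ± 7.2 CPM with LPS, a rise of 0.31 ± 0.06 (adjusted p = 2.2e-05). The list of biogenesis regulators did not move as 1. In the same comparison Pprc1 was lower, with 38, 38.1 and 36.2 CPM against 49.2, 49.1 and 50.7 CPM. Gabpb1 was lower too, with 13.4, 15.3 and 13.8 CPM against 17.8, 20.2 and 21.3 CPM. For Nrf1 and Tfam the groups overlapped. AA467197, which encodes a paralogue of Ndufa4, averaged 102 ± 4.39 CPM with LPS and 0.861 ± 0.301 CPM in untreated cells at 4 h, a rise of 6.83 ± 0.19 (adjusted p = 3.2e-23) or 6.06 by library total. With both agents at 4 h it averaged 57.7 ± 5.6 CPM, a log2 fold change against LPS of -0.83 ± 0.12 (adjusted p = 1e-06) or -0.61 by library total. Without LPS the direction was the opposite. Dexamethasone alone at 4 h gave AA467197 16.3, 14.5 and 9.81 CPM, against 1.16, 0.553 and 0.875 CPM in untreated cells. Ndufa4 itself had 94.6, 92.9 and 95.1 CPM with LPS and 72.6, 77.4 and 71.9 CPM untreated at 4 h, at 0.35 ± 0.06 (adjusted p = 1.2e-06) under TMM and -0.42 (3.1e-08) by library total.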

How the data were processed

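RNA of 24 macrophage libraries was sequenced by the submitters. The deposited table holds raw whole-number counts per gene, not normalized, with the exon length of each gene; per the file headers it came from featureCounts 2.0.0 on read pairs, unstranded, with GENCODE M29. The submitters' processing notes name STAR, GRCm38 and mm10, while GENCODE M29 belongs to a later build, so gene coordinates of the table are not printed. Symbols came from GENCODE M21 by Ensembl identifier, which named 52081 identifiers and left 3276 unnamed. No column was set aside.

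Genes passing edgeR's filterByExpr (14985; 14601 with counts fell below it) were fitted by quasi-likelihood, 1 coefficient for each group, using edgeR 4.0.16 under R 4.3.3. The fit used TMM scaling and robust dispersions, and had 16 residual degrees of freedom and a biological coefficient of variation of 6.29%. Tests were two-sided. The standard error was approximated as the size of the log2 fold change divided by the root of the F statistic. Levels are CPM scaled by TMM, and medians and sums over gene lists are descriptions with no test. The procedure was tested on simulated data. The chi-square statistic per gene between replicates, 2.99 to 7.77, marked no pair as a duplicate.

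The members, gene lists and comparisons were chosen with earlier results of these data known. Named members are a fixed panel plus, in each main comparison, the 4 largest rises and 4 largest falls among called members averaging at least 5 CPM, and the 3 largest each way in each other contrast. Other members were named after their values were seen. Alternatives were library size only, DESeq2 size factors, DESeq2 1.42.0 with its Wald test, other filters, the compared groups alone, the replicate number as a block and each library left out. The scalings of the related gene lists were added after seeing the data. Sequences are RefSeq promoter windows of GRCm38.p6. Counting intervals are not given, since differences between replicates exceed counting error.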

Additional observations from a re-analysis of the deposited data

Results flagged for a closer look

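Each value below is a test of a difference between effects, in edgeR's quasi-likelihood fit over all genes, of the kind that marks a result for a second look. The LPS effect differed between 24 h and 4 h for 47 members (53.4%, against 61.3% of all genes tested). Ndufaf7 (2.92), Ndufaf4 (1.86) and Ndufv3 (0.84) were more positive at 24 h. Uqcrfs1 (-0.56), Ndufaf8 (-0.51) and Cycs (-0.40) were more negative, and these 3 rest on the TMM scaling. The effect of dexamethasone alone differed between the times for 24 members (27.3%, against 30.7% of all genes). Ndufaf4 (0.43) and Cyc1 (0.32) were more positive at 24 h and Ndufv2 (-0.77), Ndufa3 (-0.57) and Cox6a1 (-0.50) more negative. Under LPS the dexamethasone effect differed between the times for 56 members (63.6%, against 38.8% of all genes). Ndufa12 (1.06), Cycs (0.89) and Cyc1 (0.85) were more positive at 24 h and Ndufaf7 (-0.99) more negative.

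With LPS against without it, the dexamethasone effect at 4 h differed for 17 members (19.3%, against 38.7% of all genes). Among them were Ndufaf7 (1.30), Ndufaf4 (0.65) and Ndufab1 (0.26) upward and Ndufa1 (-0.42), Cox4i1 (-0.40) and Cox5a (-0.39) downward. At 24 h the dexamethasone effect differed for 61 members (69.3%, against 38.2% of all genes), led by Uqcr11 (0.89), Ndufa12 (0.82) and Uqcrfs1 (0.81).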

How the results depend on the processing

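Scaling by library size only reversed the members' median for LPS against untreated at 4 h (-0.44, with -0.59, -0.29, -0.20 and -0.32 for complexes I, III, IV and V) and for dexamethasone plus LPS against LPS at 4 h (0.11, with 0.20, 0.10, 0.04 and 0.06). It reversed the difference of the LPS effect between 24 h and 4 h for Uqcrfs1 (0.01), Ndufaf8 (0.06) and Cycs (0.17), raised the count of that difference to 80 and lowered the median of LPS at 24 h to 0.28. The median of LPS at 4 h was 0.39 with DESeq2 size factors and with DESeq2's Wald test, and 0.29 with no filter. Fits of only the 2 groups compared gave a median of 0.08 for dexamethasone at 4 h and a count of 21 for dexamethasone plus LPS against LPS at 4 h. DESeq2's Wald test gave a count of 26 for the dexamethasone effect with against without LPS at 4 h. The cause of these differences was not tested, beyond the shift of all genes that library size scaling brings.

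With each library left out in turn, the median of LPS against untreated ran from 0.28 to 0.35 at 4 h and from 0.44 to 0.49 at 24 h, and the count for dexamethasone at 24 h from 24 to 40. Values of named members kept their side of the threshold in 546 of these settings and lost it in 30. With the replicate number as a block the 12 counts were within 1.5 times of those without (62 for LPS at 4 h, 74 for LPS at 24 h, 59 for both agents against LPS at 24 h), and no named member changed its call. Same-numbered libraries deviated with correlations of -0.0533 to 0.0392, so the numbers were not taken as pairs. Depth limits members near 1 CPM, such as Cox6a2 and Cox6b2, where a fold change rests on few reads per library.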

Other observations

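Among members below 5 CPM, Cox7a1, the muscle isoform of a complex IV subunit, had 3.14, 2.23 and 2.54 CPM with dexamethasone plus LPS and 0.964, 2.19 and 1.74 CPM with LPS at 24 h, at 0.70 (adjusted p = 0.057, edgeR). Atp5s, which encodes factor B of ATP synthase, had 1.73, 2.06 and 1.06 CPM with LPS and 4.59, 3.6 and 3.13 CPM in untreated cells at 4 h, a fall on both scales (-1.22 ± 0.25, adjusted p = 3.3e-05, or -1.99 by library total). Of assembly factors outside the name rule, Ecsit, which acts in complex I assembly and in Toll-like receptor signalling, averaged 5.33 ± 0.604 CPM with LPS and 11.1 ± 1.56 CPM untreated at 4 h (-1.07 ± 0.15, adjusted p = 6.5e-08, or -1.84 by library total). At 24 h it averaged 10.4 ± 1.58 CPM with LPS and 6.24 ± 0.72 CPM untreated (0.73 ± 0.14, adjusted p = 3.5e-05, or 0.54 by library total), the same pair of directions as Ndufaf4. Others on that list differed under TMM. Coa5 had 362, 362 and 366 CPM with LPS against 137, 117 and 128 CPM untreated at 4 h. Tmem126b had 8.47, 7.99 and 10.2 CPM against 27.3, 26.8 and 29.6 CPM at 4 h. At 24 h it had 20.9, 23.6 and 22 CPM against 31.5, 30.3 and 32.6 CPM. All errors of levels are SD of 3 libraries and those of fold changes are SE.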
